A study of Mus musculus with 4 samples.

Results

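Hox genes encode homeodomain transcription factors, and Meis1 and Pbx3 encode partner homeodomain proteins of the TALE class, named for an extended loop in the homeodomain. Hoxa5, Hoxa7, Hoxa9, Hoxa10, Hoxb2, Hoxb3, Hoxb4, Meis1 and Pbx3 were taken by symbol, which gave 9 genes of the 41214 gene identifiers in each count table. RNA had been sequenced from megakaryocytes, the marrow cells that release platelets, of mice that were wild-type or knockout for Gfi1b, the gene of a zinc finger repressor of megakaryocyte and red cell development. The cells carried no lineage markers, were positive for the stem cell factor receptor cKit and for the platelet receptor subunits CD41 and CD61, and were sorted from tibiae, femora and humeri.

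The groups were PF4-Cre knockout, PF4-Cre wild-type, ROSA-Cre knockout and ROSA-Cre wild-type, with 1 library each. All mice were C57Bl/6 and 8 weeks old, and the wild-type mice carried the same Cre label as the knockout mice of their model. Pf4, whose promoter names the first Cre, is a platelet factor gene active in megakaryocytes; the labels do not say where or when the ROSA-Cre allele acts, which Gfi1b exons are removed, or whether mice were pooled. No group has a replicate, so the 2 Cre models served as each other's repeat for the genotype effect. The p-values therefore test the genotype effect averaged over the models. Their error comes from how far that effect differs between the models and from a spread estimated over all genes. The models also differ in depth. Fits that left out 1 library, given below, had no term for the Cre model. Their estimates mix genotype and model, so a call that ended there does not show that the effect rests on 1 library. Dropping the Cre model term with all 4 libraries kept left 1 of the 9 genes at an adjusted p under 0.05 in edgeR's quasi-likelihood test. With the term, 5 were.

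In blood, Hoxa and Hoxb genes are most active in stem and early progenitor cells and are shut down as cells mature. HOX proteins bind DNA better with a PBX or MEIS partner, and MEIS1 is needed for megakaryocyte formation in mouse embryos. Hoxa9 and Meis1 together are known for driving leukaemia in mice, where Pbx3 acts as a further partner. GFI1 and GFI1B recognise DNA with an AATC core, and in haematopoietic cells GFI1 has been described as an opponent of HOXA9 at shared sites.

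Promoters are shown for Hoxa5, Hoxa7 and Hoxa9, the genes with at least 2-fold higher fitted levels in the labelled knockout that passed the test, and for the start of Hoxa10 with the most matches. The set of RefSeq promoters used here (build GRCm38.p6) held 7 promoters for 6 of the 9 genes. Each runs from 250 bases before to 50 bases after the annotated start. That set held none for Hoxb2, Hoxb3 and Pbx3. The sequences below run 5′ to 3′ on the minus strand of chromosome 6, and capitals mark the letters AATC, or GATT where the match lies on the opposite strand.
Hoxa5, chr6:52204538-52204837: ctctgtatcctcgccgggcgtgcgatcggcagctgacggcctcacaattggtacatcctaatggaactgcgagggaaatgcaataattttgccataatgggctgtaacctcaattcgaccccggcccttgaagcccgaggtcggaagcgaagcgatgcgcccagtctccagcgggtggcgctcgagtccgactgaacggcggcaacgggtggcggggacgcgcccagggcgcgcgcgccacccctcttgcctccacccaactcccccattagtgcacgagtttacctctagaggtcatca
Hoxa7, chr6:52218524-52218823: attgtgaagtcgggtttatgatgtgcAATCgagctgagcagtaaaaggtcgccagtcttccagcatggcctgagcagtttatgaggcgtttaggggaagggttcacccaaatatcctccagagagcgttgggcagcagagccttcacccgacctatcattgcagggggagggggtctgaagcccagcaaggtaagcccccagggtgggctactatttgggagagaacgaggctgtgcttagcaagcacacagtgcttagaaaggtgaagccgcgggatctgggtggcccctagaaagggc
Hoxa9, chr6:52227321-52227620: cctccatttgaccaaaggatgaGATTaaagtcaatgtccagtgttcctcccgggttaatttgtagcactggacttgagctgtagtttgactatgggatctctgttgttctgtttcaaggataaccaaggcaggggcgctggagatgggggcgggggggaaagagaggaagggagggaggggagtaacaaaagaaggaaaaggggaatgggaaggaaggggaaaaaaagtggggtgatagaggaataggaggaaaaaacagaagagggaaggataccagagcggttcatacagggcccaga
Hoxa10, chr6:52234890-52235189: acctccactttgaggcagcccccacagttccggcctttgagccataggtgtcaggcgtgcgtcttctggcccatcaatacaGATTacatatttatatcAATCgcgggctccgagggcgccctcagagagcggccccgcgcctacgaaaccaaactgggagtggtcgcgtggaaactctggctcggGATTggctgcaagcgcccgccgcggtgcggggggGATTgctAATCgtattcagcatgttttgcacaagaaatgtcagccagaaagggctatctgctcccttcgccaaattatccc

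The letters AATC on either strand occurred 0 times in the Hoxa5 window, 1 time in that of Hoxa7 and 1 time in that of Hoxa9. The 2 Hoxa10 windows held 5 and 2 matches, Meis1 held 1 and Hoxb4 held 0. Of 32851 RefSeq promoters of 300 bases, 73.1% held at least 1 match, and a match in 4 of the 6 genes is a share no higher. The 73.1% counts promoters, while the 4 of 6 counts genes and merges the 2 Hoxa10 windows. The letters TGATTNAT, a joint HOX and PBX motif, and TGACAG, a MEIS motif, occurred 0 times in these 7 windows on either strand, against 3.22% and 19.2% of all promoters. These matches describe letters in a short window, since binding was not measured.

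Gene counts totalled 59595680 and 21835165 in the PF4-Cre and ROSA-Cre knockout libraries, against 61652843 and 24869421 in the wild-type libraries. Below, values of a genotype are always given for PF4-Cre and then for ROSA-Cre, and CPM are counts scaled to a common library total, with TMM factors applied. A count of 0 allowed up to 0.0496 and 0.134 CPM on this scale in the knockout libraries and up to 0.0502 and 0.122 CPM in the wild-type libraries (3 counts per library). Gfi1b itself had 84744 and 55122 counts in the libraries labelled knockout, against 10137 and 5864 in those labelled wild-type. This goes against the label as a transcript level (log2 fold change 3.21 ± 0.16, adjusted p = 0.000137). A count over the whole gene does not test for an exon deletion, so each direction below rests on the labels. Its paralog Gfi1 had 2416 and 2128 counts in the labelled knockout and 471 and 198 in the wild-type libraries.

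Beside the marker counts below stand the shares of all genes tested: 11.6% were higher and 8.72% lower in the labelled knockout. The 11 megakaryocyte markers were detected in every library. The most abundant was Itga2b, which encodes CD41 and was used in the sort: it had 149393 and 48249 counts in the labelled knockout and 142330 and 87864 in the wild-type libraries. Gp6 was among the low ones, at 13.3 and 4.69 CPM in the labelled knockout against 1.57 and 2.93 CPM in the wild-type libraries, and Gp1ba ran from 3.89 to 12.8 CPM. Of the 11 markers, 3 were higher, 2 were lower and 6 did not pass; without the PF4-Cre wild-type library 0 passed in either direction, and without each of the others 1 did. Of 12 stem and progenitor markers, 3 were higher and 1 was lower, and their summed level was 1059 and 1595 CPM in the labelled knockout against 876 and 833 CPM in the wild-type. The higher ones were Procr, Gata2 and Mecom; without 1 library, 3 or 2 of the 12 were higher and 0 lower. All 6 neutrophil precursor markers were lower, also in 5 or 6 of 6 without 1 library, with sums of 342 and 338 CPM against 1176 and 1328 CPM in the wild-type libraries, and none of them was at 0. Of 10 erythroid markers, 4 globin genes were higher and 3 others lower, and the sums were 411 and 379 CPM against 258 and 227 CPM. The other 8 marker lists held few calls: 1 of 5 mast cell and basophil and 1 of 5 endothelial markers were higher, and 2 of 8 macrophage, 1 of 2 eosinophil and 1 of 3 stromal markers were lower. Of the tested markers of mature neutrophils, B cells and T and NK cells 0 passed. Leaving out 1 library, which also drops the Cre model term, moved some of these. The median log2 fold change of the 2 eosinophil markers was 2.20 without the ROSA-Cre wild-type library and -4.79 without the ROSA-Cre knockout library. These estimates mix genotype with the Cre model, and the median of the 2 for ROSA-Cre over PF4-Cre was 4.35. For the 5 mature neutrophil markers the median was -1.86 without the PF4-Cre knockout library, against -0.88 with all libraries. Without the ROSA-Cre knockout library 2 erythroid markers were higher and 0 lower, and without either ROSA-Cre library 0 macrophage markers were lower. Mature neutrophil markers summed to 736 and 172 CPM in the labelled knockout, against 626 and 615 CPM in the wild-type, and eosinophil markers to 5.60 and 196 CPM against 22.2 and 278 CPM, so these sums differed between the models as well. In bulk RNA, a change in the share of cells of a type and a change in RNA per cell cannot be told apart, and the part of these marker shifts in the Hox levels was not tested.

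All 9 genes had higher CPM in both labelled knockout libraries than in either wild-type library, a pattern that 23.4% of the 15063 genes tested showed in this direction. With edgeR's quasi-likelihood test, 5 of the 9 genes, Hoxa5, Hoxa7, Hoxa9, Hoxa10 and Hoxb4, were higher at an adjusted p under 0.05, where 11.6% of all genes were. None was lower, against 8.72% of all genes; all 9 estimates were positive, also with DESeq2's Wald test. The median log2 fold change over the 9 genes was 0.96, beside -0.022 over all genes tested. Of the 9 genes, 3 were past the test at 2-fold or more, as were 7.69% of all genes.

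**Figure D1:**
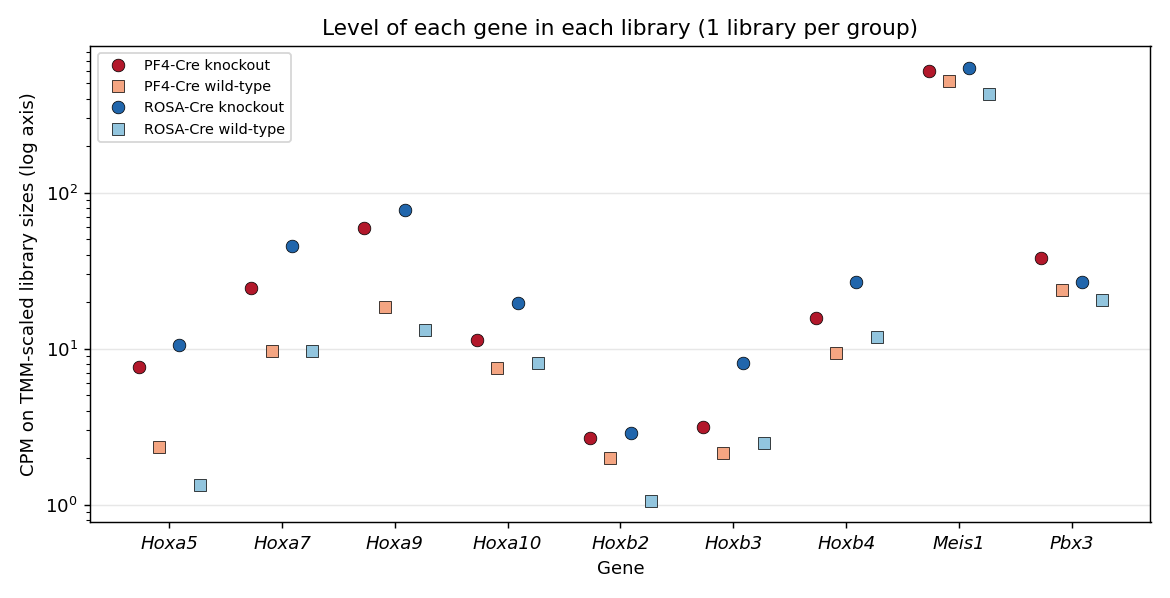
CPM on a log axis for each of the 9 genes in each library, with circles for libraries labelled knockout and squares for wild-type (1 library per group, no error bar). In every gene both circles lie above both squares, with the widest gaps in Hoxa5 and Hoxa9 and the narrowest in Pbx3 and Meis1.

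Hoxa5, Hoxa7 and Hoxa9 carried the largest differences of the 9 genes. Hoxa9 (ENSMUSG00000038227, chromosome 6, 52223100 to 52231089, minus strand) encodes the factor most often tied to progenitor self-renewal. It had 3585 and 1733 counts in the labelled knockout libraries, against 1099 and 324 in the wild-type libraries. Its level was 59.3 and 77.4 CPM in the labelled knockout, against 18.4 and 13.2 CPM in the wild-type. Both knockout values thus lay well above both wild-type values, and the ROSA-Cre pair stood further apart. The ratio of labelled knockout over wild-type was 3.22 (3.01 to 3.45 as its 95% counting interval) within PF4-Cre, and it was 5.88 (5.22 to 6.64) within ROSA-Cre. Over both models the log2 fold change was 2.11 ± 0.22 (SE; adjusted p = 0.00195), and the call held in all 4 fits that left out 1 library, with log2 fold changes of 1.91 to 2.38. The miRNA gene Mir196b lies in the exonic sequence of Hoxa9 and had 0 counts in all libraries.

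Hoxa5 (ENSMUSG00000038253, chromosome 6, 52201754 to 52204587), a patterning factor also expressed in early blood progenitors, had the largest fold change of the 9 genes. It had 457 and 235 counts in the labelled knockout, against 139 and 33 in the wild-type, or 7.56 and 10.5 CPM against 2.33 and 1.34 CPM. The lowest value, in the ROSA-Cre wild-type library, rests on the smallest count of the Hoxa members. The ratio was 3.25 (2.68 to 3.96) for PF4-Cre and 7.83 (5.42 to 11.6) for ROSA-Cre. The log2 fold change was 2.28 ± 0.38 (adjusted p = 0.01). Without the ROSA-Cre wild-type library and the Cre model term it was 1.98. With all 4 libraries and no Cre model term it was 2.28 (adjusted p = 0.0903 in edgeR's test).

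Hoxa7 (ENSMUSG00000038236, chromosome 6, 52214491 to 52221854), a neighbour of Hoxa9 that is expressed with it in progenitors, had 1474 and 1012 counts in the labelled knockout, against 580 and 237 in the wild-type. This came to 24.4 and 45.2 CPM against 9.70 and 9.63 CPM. The wild-type libraries were nearly level with each other, so the difference between the models lay on the knockout side. The ratio was 2.51 (2.28 to 2.77) for PF4-Cre and 4.69 (4.07 to 5.43) for ROSA-Cre, and the log2 fold change was 1.77 ± 0.24 (adjusted p = 0.00523). Without the ROSA-Cre knockout library and the Cre model term the log2 fold change was 1.33. With all 4 libraries and no Cre model term it was 1.84 (adjusted p = 0.0949 in edgeR's test). The antisense gene Hoxaas3 shares 20.4% of the exonic bases of Hoxa7 and had 105 and 16 counts in the labelled knockout, against 69 and 19 in the wild-type libraries. It lay far below Hoxa7 in each library. The strand setting of the counting is not given in the sources used here.

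Hoxa10 (ENSMUSG00000000938, chromosome 6, 52231197 to 52240854), a regulator whose overexpression is known to alter megakaryocyte and myeloid output in mice, changed least among the Hoxa members. It had 682 and 441 counts in the labelled knockout, against 451 and 199 in the wild-type, which is 11.3 and 19.7 CPM against 7.55 and 8.09 CPM. The ratio was 1.49 (1.32 to 1.69) for PF4-Cre and 2.44 (2.06 to 2.89) for ROSA-Cre. The log2 fold change of 0.92 ± 0.25 passed the test narrowly (adjusted p = 0.0415). With all 4 libraries and no Cre model term it was 0.98, and the call ended (adjusted p = 0.282 in edgeR's test). The 4 fits that left out 1 library also lacked that term. There the log2 fold change ranged from 0.53 without the ROSA-Cre knockout library to 1.33 without the PF4-Cre knockout library.

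**Figure D2:**
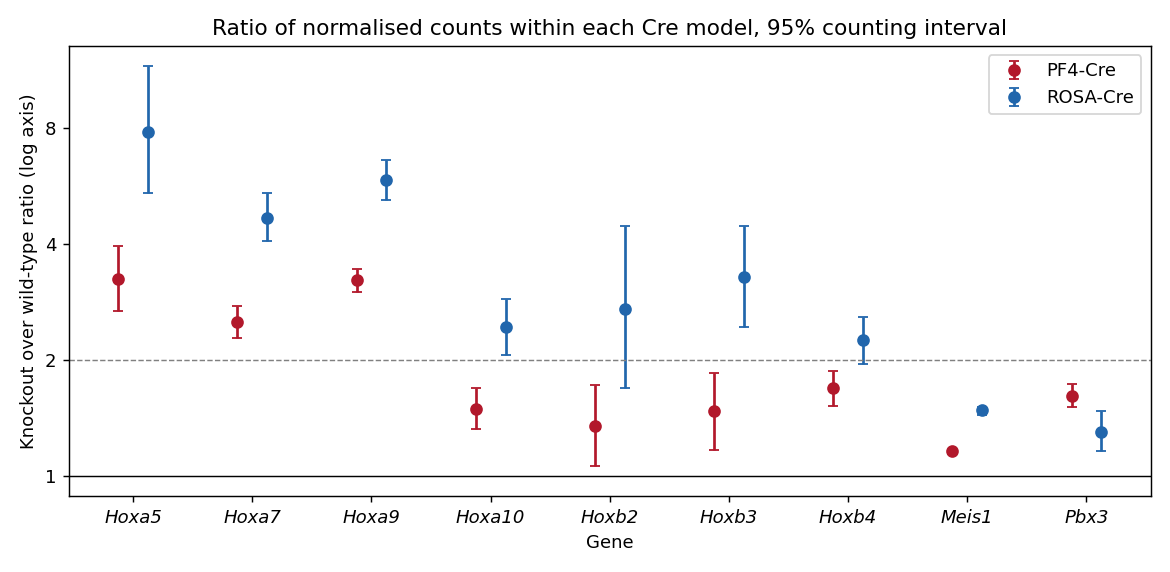
Ratio of normalised counts, labelled knockout over wild-type, for each gene within PF4-Cre (left point of each pair) and ROSA-Cre (right point) on a log axis, with 95% intervals that cover counting error only; the dashed line marks 2-fold. The ROSA-Cre point is higher in 8 of the 9 genes, Pbx3 being the exception.

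None of the 3 Hoxb members reached 2-fold within PF4-Cre, and 1 of them passed the test. Hoxb4 (ENSMUSG00000038692, chromosome 11, 96318267 to 96321638, plus strand), known for expanding haematopoietic stem cells when overexpressed, had 957 and 599 counts in the labelled knockout, against 561 and 293 in the wild-type. This was 15.8 and 26.8 CPM against 9.39 and 11.9 CPM. The ratios of 1.69 (1.52 to 1.87) for PF4-Cre and 2.25 (1.95 to 2.59) for ROSA-Cre were the closest to each other among the Hox members. The log2 fold change was 0.96 ± 0.20 (adjusted p = 0.0211). The call ended in each fit that left out 1 library, with log2 fold changes of 0.57 without the ROSA-Cre knockout library to 1.33 without the PF4-Cre knockout library and adjusted p of 0.0556 to 0.796.

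Hoxb2 and Hoxb3, anterior members of the Hoxb cluster that are also expressed in stem cells, did not pass. Hoxb3 had 190 and 182 counts in the labelled knockout, against 128 and 61 in the wild-type, or 3.14 and 8.13 CPM against 2.14 and 2.48 CPM. The ROSA-Cre knockout library alone stood clearly above the other 3 libraries. Its log2 fold change was 1.12 ± 0.38 (adjusted p = 0.081), and without the PF4-Cre knockout library it was 1.82 with an adjusted p of 0.0295. Hoxb2 had 162 and 64 counts in the labelled knockout, against 119 and 26 in the wild-type, or 2.68 and 2.86 CPM against 1.99 and 1.06 CPM. The ROSA-Cre wild-type library was the low one here (log2 fold change 0.88 ± 0.41, adjusted p = 0.175). The antisense gene Hoxb3os overlaps both, sharing 52.9% of the exonic bases of Hoxb3 and 27.3% of those of Hoxb2. It had 255 and 118 counts in the labelled knockout and 154 and 84 in the wild-type libraries (log2 fold change 0.67 ± 0.31, adjusted p = 0.166). These totals are of the same order as those of Hoxb2 and Hoxb3, and reads of the 3 genes cannot be told apart with certainty.

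The partners Meis1 and Pbx3 were above wild-type in both models by smaller ratios, and neither passed the test. Meis1 (ENSMUSG00000020160, chromosome 11, 18879817 to 19018985, minus strand) had 36213 and 14163 counts in the labelled knockout, against 30931 and 10540 in the wild-type, or 599 and 632 CPM against 518 and 428 CPM. The 2 knockout libraries lay close together, and the 2 wild-type libraries further apart. The ratio was 1.16 (1.14 to 1.17) for PF4-Cre and 1.48 (1.44 to 1.51) for ROSA-Cre, and the log2 fold change was 0.39 ± 0.14 (adjusted p = 0.0995). The counting intervals were narrow at these counts, and the effect of depth was not tested. The antisense gene Gm16140, which shares 8.51% of Meis1's exonic bases, lay on the other side, with 400 and 99 counts in the labelled knockout against 632 and 209 in the wild-type (log2 fold change -0.80 ± 0.25, adjusted p = 0.0622).

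Pbx3 (ENSMUSG00000038718, chromosome 2, 34171457 to 34373142, minus strand) had 2314 and 601 counts in the labelled knockout, against 1416 and 507 in the wild-type, or 38.3 and 26.8 CPM against 23.7 and 20.6 CPM. It was the only one of the 9 genes with its highest level in the PF4-Cre knockout library and with a larger ratio in PF4-Cre, 1.61 (1.51 to 1.73), than in ROSA-Cre, 1.30 (1.16 to 1.47). The log2 fold change was 0.54 ± 0.16 (adjusted p = 0.0557). It was called in 3 alternatives: with DESeq2's size factors (0.55, adjusted p 0.05 after rounding), without the filter on low counts (0.56, adjusted p = 0.0158) and among genes that averaged 5 CPM or more (0.60, adjusted p = 0.0339).

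Between the models, none of the 9 genes passed edgeR's test of the Cre model effect, where 17.0% of all genes did. DESeq2's Wald test also called 0 of them, and at an unadjusted p under 0.05 edgeR called 1, Hoxb4. The estimates for ROSA-Cre over PF4-Cre ran from -0.38 ± 0.41 in Hoxb2 to 0.82 ± 0.38 in Hoxb3 on the log2 scale. By ratio, 7 of the 9 genes reached 2-fold within ROSA-Cre, as did 13.6% of all genes, and 3 of the 9 within PF4-Cre, as did 9.81%. Those 3 genes, Hoxa5, Hoxa7 and Hoxa9, reached it in both, against 7.40% of all genes. The ROSA-Cre ratio was the larger in 8 of the 9 genes, where 52.8% of all genes had the larger ratio in ROSA-Cre. The counting intervals of the 2 ratios overlapped in Hoxb2 and did not overlap in the other 8 genes, Pbx3 with its larger PF4-Cre ratio among them. With 1 library per group, the difference of the genotype effect between the models could not be tested.

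Per kilobase of exonic sequence, Meis1 stood above the other members in all 4 libraries, with 56.8 and 60.1 CPM per kilobase in the labelled knockout and 49.1 and 40.7 in the wild-type libraries. The order of the Hox members differed between genotypes. In the labelled knockout libraries Hoxa9 (10.6 and 13.9 CPM per kilobase) and Hoxa7 (8.47 and 15.7) were above Hoxb4 (6.17 and 10.4). In both wild-type libraries Hoxb4 was the highest Hox member, at 3.66 and 4.64 CPM per kilobase, beside 3.37 and 3.35 for Hoxa7 and 3.30 and 2.36 for Hoxa9. In the PF4-Cre wild-type library these 3 levels are close, and their order is a description of 1 library. Hoxb2 and Hoxb3 were the lowest members, with medians over the 4 libraries of 0.669 and 0.661 CPM per kilobase. Pbx3 lay among the Hox genes, at 6.26 and 4.39 against 3.88 and 3.37 CPM per kilobase.

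The other 32 Hox genes give the setting of these members. Of all 39 Hox genes, 15 had 0 counts in every library and 14 were tested. Of the 14, 9 were higher in the labelled knockout and none was lower, all 14 estimates being positive. Hoxb6 and Hoxb7 passed the filter on low counts through the labelled knockout libraries alone, so they could enter only as higher. Over all genes tested, 11.6% were higher and 8.72% lower. No Hoxc or Hoxd gene passed the filter on low counts: the largest count was 17 in the Hoxc cluster and 1 in the Hoxd cluster. The 7 Hox members held 90.8% and 90.5% of all Hox counts in the labelled knockout libraries, against 92.3% and 90.2% in the wild-type libraries. Summed over the 39 genes, Hox expression was 137 and 211 CPM in the labelled knockout and 55.8 and 52.8 CPM in the wild-type libraries.

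Of the 7 other Hox genes tested, all in the Hoxa and Hoxb clusters, 4 passed as higher and 3 did not pass. Hoxb6 and Hoxb7 are among the 4, and both passed the filter on low counts only through the labelled knockout libraries. Hoxb6, a posterior neighbour of Hoxb5, had 131 and 36 counts in the labelled knockout, against 10 and 2 in the wild-type libraries. Its ratio was 12.9 (6.82 to 27.6) for PF4-Cre and 19.8 (5.09 to 170) for ROSA-Cre, the wide interval coming from the 2 wild-type counts, and its log2 fold change was 3.86 ± 0.54 (adjusted p = 0.00559). That call held without any 1 library. Hoxb7 had 22 and 9 counts in the labelled knockout and 0 in both wild-type libraries, which is at least 7.25-fold higher in PF4-Cre and at least 3.30-fold higher in ROSA-Cre against a floor of 3 counts per library (adjusted p = 0.0214). Its call ended in the 3 fits without 1 library that could test it (adjusted p of 0.0526 to 0.253).

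Hoxa6 had 144 and 121 counts in the labelled knockout, against 44 and 29 in the wild-type (log2 fold change 1.93 ± 0.39, adjusted p = 0.0172). Hoxa3 had 161 and 185 counts, against 70 and 27 in the wild-type (2.0 ± 0.48, adjusted p = 0.0302). Both calls held only without the PF4-Cre knockout library, with log2 fold changes of 2.51 and 2.86 there, and ended in the other 3 such fits, with adjusted p up to 0.5 for Hoxa6 and 0.523 for Hoxa3. The annotated span of Hoxa3 contains Hoxa4, Hoxa5 and Hoxa6 on the same strand, with 0 exonic bases shared.

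Hoxa4 lay between neighbours with higher ratios. It had 88 and 39 counts in the labelled knockout, against 78 and 38 in the wild-type, with ratios of 1.11 (0.812 to 1.53) for PF4-Cre and 1.13 (0.703 to 1.81) for ROSA-Cre. Those intervals did not overlap the intervals of Hoxa3, Hoxa5, Hoxa6, Hoxa7 and Hoxa9 in either model. They did overlap that of Hoxa10 in PF4-Cre (1.32 to 1.69) and that of Hoxa2 in ROSA-Cre (1.42 to 11.1). The difference between genes was not tested. Hoxa2, with 56 and 20 counts against 16 and 6 in the wild-type, and Hoxb5, with 99 and 29 counts against 15 and 17, did not pass (adjusted p = 0.051 and 0.0656). The median log2 fold change of these 7 genes was 1.93, or 1.83 with Hoxb7 at its bound. Both medians count Hoxb6 and Hoxb7, which could enter only as higher.

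**Figure D3:**
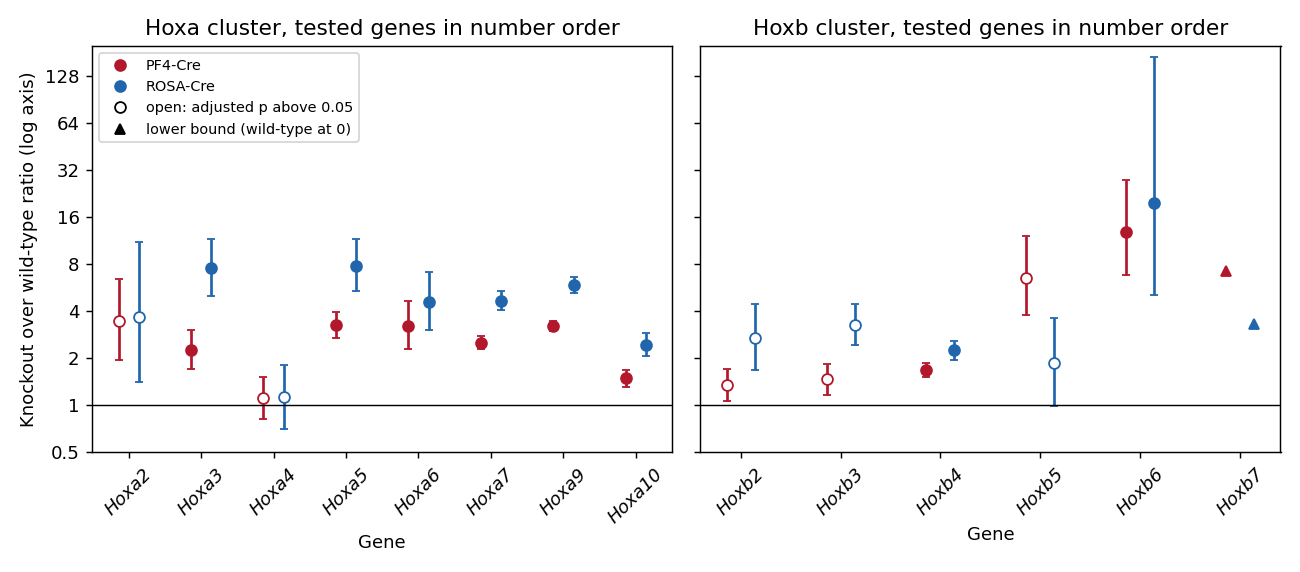
Ratio of labelled knockout over wild-type within each Cre model for the 14 tested Hoxa and Hoxb genes in order of gene number, on a log axis with 95% counting intervals; open circles did not pass the genotype test, and triangles are lower bounds for Hoxb7, which had 0 wild-type counts. Hoxa4 sits near 1 in both models between neighbours with higher ratios, and Hoxb6 has the highest ratios among genes with wild-type counts.

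Among the other TALE homeobox genes and Pbxip1, 8 of 10 were tested, with a median log2 fold change of 0.02. Of these, 2 passed as higher and 1 as lower, beside 11.6% and 8.72% of all genes. Pbx2, a PBX family partner, had 4485 and 2036 counts in the labelled knockout, against 4560 and 2226 in the wild-type (-0.02 ± 0.12, adjusted p = 0.939). Tgif1, a TALE repressor, had 1183 and 748 counts in the labelled knockout, against 428 and 100 in the wild-type (2.20 ± 0.37, adjusted p = 0.01), and this held without any 1 library. Its paralog Tgif2 had 741 and 208 counts, against 1430 and 626 in the wild-type (-1.20 ± 0.20, adjusted p = 0.0104). The noncoding gene 5430405H02Rik shares 56.7% of Tgif2's exonic bases on the opposite strand, and had 245 and 212 counts against 182 and 118 in the wild-type libraries. Pbxip1, whose product binds PBX proteins and hinders their binding to DNA, had 4603 and 2055 counts, against 2474 and 1388 in the wild-type (0.79 ± 0.13, adjusted p = 0.00944). With all 4 libraries and no Cre model term, 0 of the 8 passed. Without 1 library and that term, log2 fold changes ran from -1.41 to -1.01 for Tgif2 and from 0.58 to 1.05 for Pbxip1.

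Genes known to maintain or silence Hox expression had medians near that of all genes, of which 11.6% were higher and 8.72% lower. Of 17 MLL, DOT1L and CDX genes, 14 were tested, 1 was higher and 4 were lower, with a median of -0.14. Aff4, a scaffold of the super elongation complex, was higher, with 29660 and 11040 counts against 14490 and 5383 in the wild-type (1.09 ± 0.13, adjusted p = 0.0028). Kmt2a, which encodes the MLL methyltransferase itself, had 6048 and 5411 counts against 5513 and 4132 and did not pass. The lower ones were Mllt1, Wdr5, Dpy30 and Dot1l, with log2 fold changes of -0.64, -0.53, -0.64 and -0.77. The Cdx genes had at most 1 count. The calls of Aff4, Mllt1, Wdr5 and Dpy30 ended in all 4 fits that left out 1 library, with adjusted p from 0.0642 for Aff4 to 0.908 for Mllt1 and Dpy30. Dot1l was lower within both models, with ratios of 0.786 for PF4-Cre and 0.437 for ROSA-Cre. Its log2 fold change for ROSA-Cre over PF4-Cre was 1.07 ± 0.21. Without the ROSA-Cre wild-type library the genotype estimate was 0.03, and it mixes genotype and model.

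Of 23 Polycomb genes, whose products silence Hox clusters, all were tested, 2 were higher and 21 did not pass, with a median of 0.10. Among all genes 11.6% were higher and 8.72% lower. In the main edgeR fit and with DESeq2's Wald test 0 were lower, and after the GC and length correction 1 was. At an unadjusted p under 0.05 in the main edgeR fit 1 was lower, Ezh2. Ezh1, a Polycomb methyltransferase of slowly dividing cells, had 3909 and 2061 counts in the labelled knockout, against 2472 and 936 in the wild-type (0.95 ± 0.18, adjusted p = 0.0136). Jarid2, a cofactor that guides the complex, had 15636 and 5686 counts, against 9826 and 3904 in the wild-type (0.67 ± 0.12, adjusted p = 0.0126). With all 4 libraries and no Cre model term, 0 of the 23 passed. Without 1 library and that term, log2 fold changes ran from 0.70 to 1.21 for Ezh1 and from 0.65 to 0.70 for Jarid2. The paralog Ezh2, the methyltransferase of dividing cells, had 4907 and 1666 counts, against 6599 and 2173 in the wild-type (-0.35 ± 0.13, adjusted p = 0.0971).

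Of 18 genes reported as targets of HOXA9, HOXA10 or MEIS1 in blood cells, 3 were higher, 3 were lower and 12 did not pass. Their median was 0.08, and the shares over all genes were 11.6% higher and 8.72% lower. Trib2, a pseudokinase gene that acts with Hoxa9 in mouse leukaemia, had 1999 and 563 counts in the labelled knockout, against 174 and 53 in the wild-type. Its ratios of 11.4 and 11.7 were nearly the same in the models, and its log2 fold change of 3.52 ± 0.21 (adjusted p = 0.000237) held without any 1 library. Itgb3, which encodes CD61, was higher (1.05 ± 0.17, adjusted p = 0.00862), as was the progenitor factor gene Sox4 (0.94 ± 0.19, adjusted p = 0.017). Ccnd1, the cyclin D1 gene, was lower, with 1859 and 313 counts against 4404 and 1596 in the wild-type (-1.72 ± 0.23, adjusted p = 0.00471). Pf4 was lower too (-0.99 ± 0.24, adjusted p = 0.0325). Pf4 and Itgb3 are also megakaryocyte markers, and the PF4-Cre transgene is named for the Pf4 promoter. In the fits that left out 1 library, the call of Itgb3 ended each time, with adjusted p up to 0.165. That of Pf4 held only without the PF4-Cre knockout library (adjusted p = 0.00559). Sox4 was higher within both models, with ratios of 1.5 for PF4-Cre and 2.45 for ROSA-Cre. Its log2 fold change for ROSA-Cre over PF4-Cre was 1.01 ± 0.19. The genotype estimate of Sox4 was 0.77 without the PF4-Cre wild-type library and 0.22 without the ROSA-Cre knockout library. That of Ccnd1 was -1.17 without the ROSA-Cre knockout library. These estimates mix genotype and model.

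Of 15 other homeobox genes of blood cells, 12 were tested, 4 were higher and 8 did not pass, with a median of 0.30. The share of all genes that were higher was 11.6%, and 8.72% were lower. With edgeR, also at an unadjusted p under 0.05, and with DESeq2's Wald test 0 were lower. Nkx2-3 had 288 and 255 counts in the labelled knockout, against 122 and 91 in the wild-type (1.42 ± 0.29, adjusted p = 0.0193). Zfhx3 (1.05 ± 0.19), Hhex (0.87 ± 0.20), a regulator of early blood and endothelial cells, and Cux1 (0.70 ± 0.16) were also higher, with adjusted p of 0.013, 0.025 and 0.0246. Zfhx3 was higher within both models, with ratios of 1.85 for PF4-Cre and 2.31 for ROSA-Cre. Its log2 fold change for ROSA-Cre over PF4-Cre was 1.64 ± 0.19. The genotype estimate was 0.57 without the PF4-Cre wild-type library and -0.03 without the ROSA-Cre knockout library. Both mix genotype and model. With all 4 libraries and no Cre model term, 0 of the 12 passed. The calls of Nkx2-3 and Hhex held in 1 of the 4 fits without 1 library and that of Cux1 in 0 of them, with adjusted p up to 0.765, 0.921 and 0.883.

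**Figure D4:**
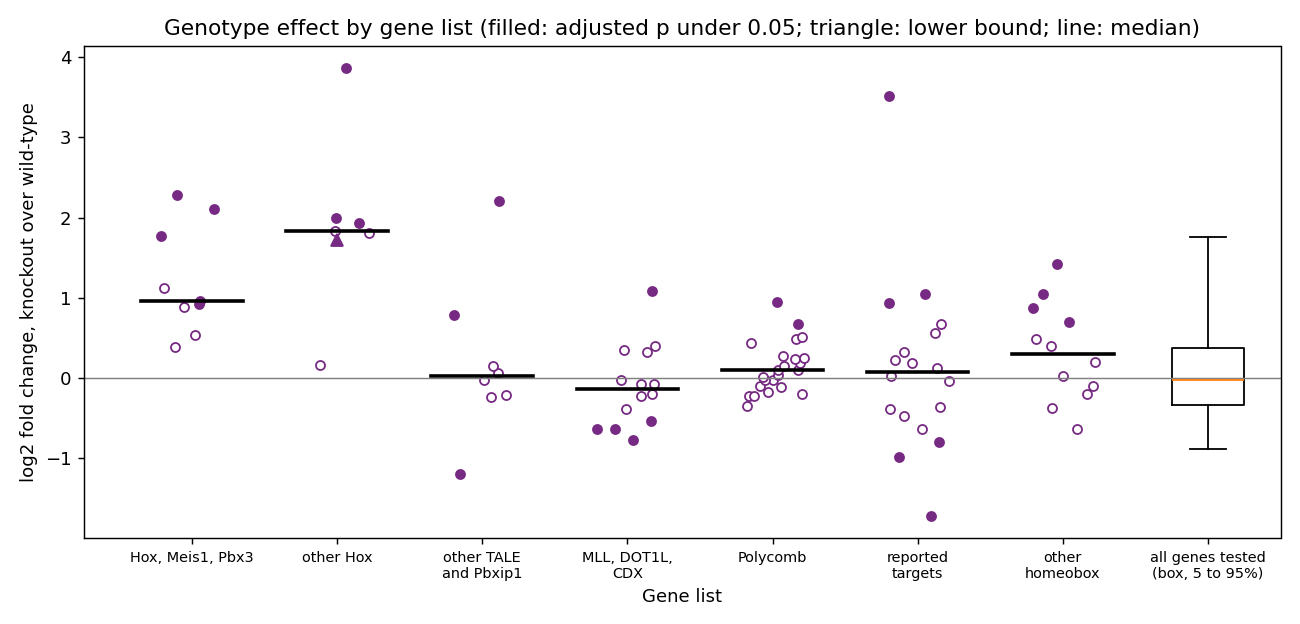
Log2 fold change, labelled knockout over wild-type over both models, for each tested gene of each list (filled points passed the test, the triangle is Hoxb7 at its lower bound, lines are medians), beside a box for all 15063 genes tested with whiskers at the 5th and 95th percentiles. The Hox lists have medians of 0.96 and 1.83, the other lists between -0.14 and 0.30. The median of 1.83 counts Hoxb6 and Hoxb7, which passed the filter on low counts only through the labelled knockout libraries.

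Among the 10594 tested genes that averaged 5 CPM or more, those closest to each member by Euclidean distance of centred log2 CPM over the 4 libraries were listed as a description. They were Spata6 and Il15 for Hoxa9 (distances of 0.1 and 0.103), Mettl7a1 and Ddah2 for Hoxa7, Gm4759 and Tspan2 for Hoxa5, and Grina and Atg14 for Hoxa10. Hoxb4 was closest to Camk1 and Oas1b, Hoxb3 to Frmd4a and Egln1, and Hoxb2 to Nceh1 and 2610008E11Rik. Dtx3l and Arfgef1 were closest to Meis1 and 4931406P16Rik and Pstk to Pbx3. With 4 points per gene, many genes can share a pattern.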

How the data were processed

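RNA of sorted megakaryocytes was compared in 4 groups of 1 library each, grouped by their titles. According to the protocols, per the labels, RNA was extracted with a MagMax-96 kit and libraries were stranded TruSeq mRNA libraries read from both ends. Tools listed in the submitters' processing notes are HTSeq, TopHat2 2.0.10, DESeq and SAMtools, with GRCm38 and mm10 as builds. The authors deposited raw read counts per Ensembl gene, 1 table per library, not normalised. Neither the strand setting of the counting nor the annotation release is given in the sources used here. Lines of HTSeq categories stayed out of library sizes; reads with no gene were 36.1% and 36.2% of uniquely aligned reads in the PF4-Cre and ROSA-Cre knockout libraries, against 32.1% and 34.9% in the wild-type libraries. Symbols and coordinates came from GENCODE release M21 (GRCm38) for 40340 identifiers, and promoters from RefSeq (GRCm38.p6).

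Genotype and Cre model effects were fitted together with edgeR 4.0.16 in R 4.3.3: TMM scaling, a filter on low counts (filterByExpr by genotype, minimum count 10), default quasi-likelihood F-tests, and Benjamini-Hochberg adjustment over all 15063 genes tested at 0.05. The fit had 1 residual and 6.13 prior degrees of freedom, and its biological coefficient of variation was 16.1%. The standard error is each log2 fold change divided by the root of its F statistic. Ratios within a model use scaled counts and carry a 95% Clopper-Pearson interval and no test. Intervals and floors (3 counts) cover counting error only: no molecular identifiers were counted, so reads may repeat a molecule. The fit was tested on simulated data. Alternatives were DESeq2 1.42.0 (size factors, Wald test), other filters, the fit without the other term, a GC and length correction, library totals, a pseudocount of 5, other fold limits and leaving out each library; edgeR's bias-adjusted quasi-likelihood method was added after seeing the data.

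The 9 genes, the 6 lists around them, the marker lists and the alternatives were chosen with earlier results of these data known. Named from each list were up to 4 genes with the smallest p-values and any past the test at 2-fold or more, from the marker lists genes the text turns on, and for each of the 9 genes the 2 genes most like it in pattern. Kmt2a, Hoxa4, Ezh2 and Pbx2 were named after their values were seen. Some single genes of these lists count in the totals and are not reported here.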

Additional observations from a re-analysis of the deposited data

Results flagged for a closer look

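In 7 genes of the lists, the labelled knockout lay on opposite sides of wild-type in the 2 models, with counting intervals on opposite sides of no change. With 1 library per group, the difference between the models was not tested. The log2 ratios of labelled knockout over wild-type, in PF4-Cre and then in ROSA-Cre, were -0.43 and 0.56 for the PBX family gene Pbx4, -0.15 and 0.11 for Mllt10, -0.13 and 0.15 for the Polycomb cofactor gene Mtf2, -0.31 and 0.59 for the receptor gene Flt3, and -0.35 and 0.28 for the progenitor factor gene Myb. The homeobox genes Hlx and Hopx went the other way, with 0.38 and -0.36 for Hlx and 1.74 and -1.25 for Hopx. Hopx had 134 and 14 counts in the labelled knockout libraries, against 39 and 38 in the wild-type libraries. None of the 9 Hox, Meis1 and Pbx3 genes was among them.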

How the results depend on the processing

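All 9 genes kept a positive genotype effect in every fit that tested them, and Hoxa9 passed in each of the 12 fits. The Cre model term compares libraries within a model, so the main fit is already paired by model, with 1 library per group. Of the 9 genes, 8 passed without the filter on low counts (Hoxb3, Meis1 and Pbx3 as well), 6 with DESeq2's size factors, 6 of the 7 tested at a mean of at least 5 CPM, 1 without the Cre model term and 2 to 4 without 1 library; in those 4 fits, which have no Cre model term, the lone library of a group is assumed to vary like the others. Over all genes, 118 were higher and 2 lower without the Cre model term (98.3% higher, against 57.2%), and 523 to 782 higher and 62 to 193 lower without 1 library (80.2% to 89.4% higher). None of these fits takes out the difference between the models. Without 1 library, 1 genotype also comes from 1 model only, so the estimate mixes genotype and model. The cause of the shifts in these counts was not tested.

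The Cre model effect was called in 4033 genes without the filter, 182 after the GC and length correction, 0 without the genotype term and 0 to 6 without 1 library, against 2566. Its small estimates in the 9 genes turned sign: Hoxa9 from -0.03 to 0.01 at a mean of at least 5 CPM and 0.22 without the genotype term, Hoxa5 from -0.09 to 0.26 without that term and 0.05 with the bias-adjusted method, and Meis1 from -0.10 to 0.13 after the GC and length correction. Without 1 library the fit had no genotype term, and 1 of the models was left with 1 genotype. Such estimates mix Cre model and genotype. They ranged from -1.88 to 1.34 for Hoxa5, -0.82 to 1.49 for Hoxa7 and -1.56 to 1.30 for Hoxa9. The ranges were -0.22 to 1.05 for Hoxa10, -1.14 to 0.27 for Hoxb2 and -0.09 to 1.60 for Hoxb3. For Hoxb4 and Meis1 they were -0.08 to 1.07 and -0.38 to 0.16. By ratio, 2517 genes were at least 1.5-fold and 572 at least 4-fold higher in the labelled knockout within PF4-Cre, and 3345 and 761 within ROSA-Cre. On library totals the log2 ratio of Meis1 was 0.28 in PF4-Cre and 0.61 in ROSA-Cre. Hoxb2, Hoxb3 and the other low Hox genes rest on few counts, and the ROSA-Cre libraries had fewer reads. The effect of depth on these genes was not tested.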
